A study of Mus musculus with 7 samples.

Results

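The 45 genes described here encode parts of the primary cilium and of intraflagellar transport (IFT), the machinery that builds it. They were chosen by gene symbol from the 55487 genes of a count table of isolated mouse pancreatic islets, and each symbol matched 1 row. Spa17 and Fam183b entered because they were lower in every Traf6 KO library in an earlier analysis of these libraries, so their difference between genotypes is a description and was given no test. The other 43 entered by known function, with earlier results of these libraries in view. Islets came from 3 Traf6 KO mice, described as a beta-cell specific deletion of the E3 ubiquitin ligase gene Traf6, and from 4 control mice. All 7 mice had eaten a 60% high-fat diet for 15 weeks, and islets of both genotypes rested in culture medium for 24 hours before RNA was taken. The labels used here do not name the Cre driver, the alleles of the controls, the age or the sex, and whole islets also hold cells in which a beta-cell deletion would leave the gene in place.

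The primary cilium is a single, mostly immotile, microtubule-based antenna that grows from the mother centriole. In the mouse pancreas, islet endocrine cells and duct cells carry one, and acinar cells do not. Trains of IFT-B and IFT-A complexes move along it, outward on kinesin-2 and back on dynein-2. The BBSome sorts membrane proteins on these trains, and the transition zone at the base acts as a gate. RFX factors, which bind a DNA element called the X-box, switch on many of these genes, and mice without Rfx3 have short or few islet cilia and impaired endocrine differentiation. FOXJ1 directs the programme of motile cilia.

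Libraries held 22104256 to 25091055 counts in Traf6 KO and 22161097 to 29917292 counts in control. The 45 genes took 10500 to 30658 of these counts in Traf6 KO and 31031 to 41771 in control. The 23 acinar markers took 49.8%, 38.9% and 1.48% of all counts in Traf6 KO 1 to 3, and 17.8%, 0.434%, 0.424% and 2.95% in controls 1 to 4. All levels below are therefore CPM scaled by TMM factors (trimmed mean of M-values, a scaling that holds most genes level between libraries), unless per kb of exon is stated. Xist stood at 421 CPM in Traf6 KO 3 with no counts of the 4 Y-linked genes looked at, and Y-linked counts were found in the 6 other libraries, so Traf6 KO 3 was the only library of that sex pattern. The targeted gene stood at 14.8, 15.4 and 14.5 CPM in Traf6 KO 1 to 3, against 17.9, 25.5, 22.1 and 12.6 CPM in controls 1 to 4. The library labelled control 4 thus lay below every Traf6 KO library for Traf6, so this gene goes against its label, and it was kept as a control for every direction given. The count covers the whole gene and does not show a deleted exon.

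Promoter windows of 250 bases before to 50 bases after the transcription start were at hand for 39 of the 45 genes (RefSeq, GRCm38.p6). They were searched for an X-box written as its 2 arms, GTTNCC followed by GGNAAC with 0 to 3 bases between them, which reads the same on both strands. Such a pair lay in 6 of 39 genes (15.4%), in 8 of 102 other cilium genes (7.84%) and in 253 of all 27025 genes with a window (0.936%). The more common single arm GTTGCC, on either strand, lay in 22 of the 39 genes (56.4%) and in 3821 of 27025 (14.1%), and it can lie inside a pair. The forkhead core GTAAACA lay, on either strand, in 0 of 39 and in 1095 of 27025 (4.05%). A match is a run of letters and not a shown binding site. The other 33 genes with a window held no pair. In 11 genes with a window, Spa17 and Fam183b included, all Traf6 KO libraries lay below the controls. Of these 11, 1 held a pair (9.09%), and it was Fam183b, chosen for being lower. Of the other 28 genes with a window, 5 held one (17.9%). The 6 matched runs are given in capitals, on the strand of the gene, to show the letters behind this count.
Fam183b: GTTGCCTGGAAAC
Ift57: GTTGCCTGGTAAC
Bbs7: GTTGCCTTGGAAAC
Tctn1: GTTGCCCGGGCAAC
Tctn3: GTTGCCAGGTAAC
Mks1: GTTGCCAGGGGAAC
Their first base lies 16, 60, 121, 140 and 24 bases before the start in Fam183b, Ift57, Bbs7, Tctn3 and Mks1, and at base 37 after it in Tctn1. Whole windows are printed below for the pair of genes that named the set, and for 1 transition-zone and 1 IFT-B gene whose match stands close to the start, with the matched run in capitals. The Spa17 window (chr9:37613672-37613971, minus strand) holds no pair. The Fam183b window (chr11:58801911-58802210, minus strand), the Mks1 window (chr11:87852965-87853264, plus strand) and the Ift57 window (chr16:49699044-49699343, plus strand) hold 1 each.
Spa17: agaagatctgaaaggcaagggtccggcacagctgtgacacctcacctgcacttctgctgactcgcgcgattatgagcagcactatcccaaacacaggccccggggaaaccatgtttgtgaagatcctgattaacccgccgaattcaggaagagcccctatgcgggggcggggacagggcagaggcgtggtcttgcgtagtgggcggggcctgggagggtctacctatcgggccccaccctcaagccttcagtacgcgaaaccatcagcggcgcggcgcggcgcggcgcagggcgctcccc
Fam183b: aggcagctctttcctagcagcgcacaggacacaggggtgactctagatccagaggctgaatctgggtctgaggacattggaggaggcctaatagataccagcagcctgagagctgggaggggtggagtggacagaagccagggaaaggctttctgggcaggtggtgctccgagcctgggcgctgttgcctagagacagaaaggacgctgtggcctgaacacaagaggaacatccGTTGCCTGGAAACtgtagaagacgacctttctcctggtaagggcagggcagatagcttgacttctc
Mks1: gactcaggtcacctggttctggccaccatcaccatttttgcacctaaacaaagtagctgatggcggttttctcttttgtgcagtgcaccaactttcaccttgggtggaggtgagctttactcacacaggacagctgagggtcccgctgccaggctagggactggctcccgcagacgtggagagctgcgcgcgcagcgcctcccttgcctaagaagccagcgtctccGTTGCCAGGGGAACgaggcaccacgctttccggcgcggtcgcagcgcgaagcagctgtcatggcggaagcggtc
Ift57: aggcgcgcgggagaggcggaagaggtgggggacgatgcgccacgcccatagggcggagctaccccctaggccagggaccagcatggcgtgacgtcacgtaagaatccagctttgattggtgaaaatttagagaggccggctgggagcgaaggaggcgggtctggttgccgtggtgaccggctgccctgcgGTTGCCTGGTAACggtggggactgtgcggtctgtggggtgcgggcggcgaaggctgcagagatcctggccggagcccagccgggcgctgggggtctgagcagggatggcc

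Per length, the levels spanned more than 100-fold between the most and the least abundant genes. Fam183b led with 76.6 CPM per kb in Traf6 KO and 118 CPM per kb in control, followed by Ift20, whose product also sits at the Golgi, at 57.7 and 61.2. Next came Arl3, a small GTPase that releases lipid-modified cargo inside the cilium, at 27.7 CPM per kb in Traf6 KO and 31.7 in control, and Ift57 at 23.3 and 27.6. Foxj1 was lowest in control at 0.354 CPM per kb, against 1.11 in Traf6 KO. The other low genes were Kif17, the homodimeric kinesin-2 motor, at 0.704 CPM per kb in Traf6 KO and 0.959 in control, and Bbs12, a chaperonin-like BBSome assembly factor, at 0.989 and 1.01. Most core subunits lay between these ends, for example Kif3a at 6.30 and 7.21 CPM per kb, Kif3b at 7.08 and 6.48 and Ift88 at 5.96 and 6.57, in Traf6 KO and control in turn.

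**Figure D1:**
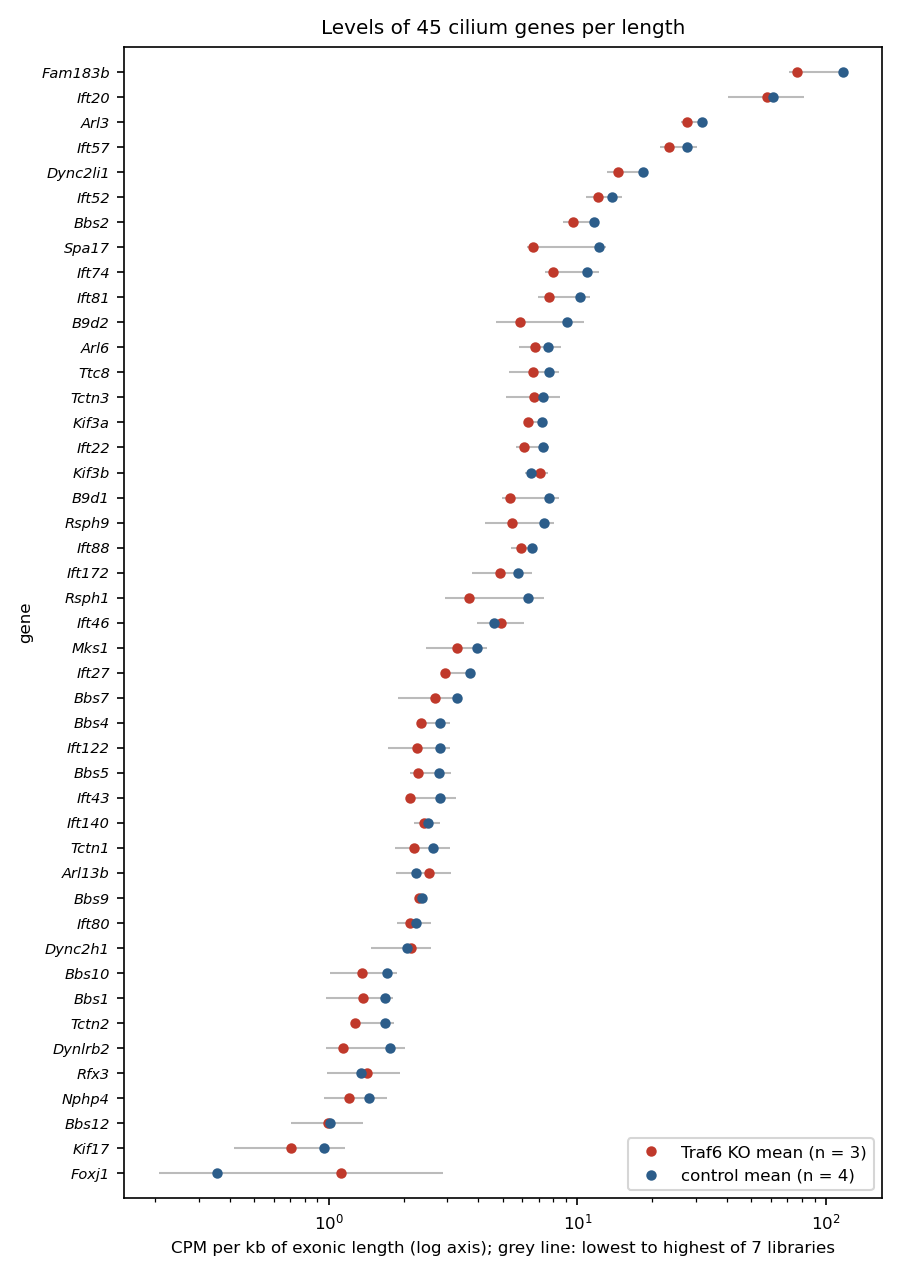
CPM per kb of exonic length for the 45 genes on a log axis, with Traf6 KO means in red (n = 3), control means in blue (n = 4) and a grey line from the lowest to the highest of 7 libraries. Fam183b (76.6 in Traf6 KO, 118 in control) stands at the top, and Foxj1 (1.11 and 0.354) at the bottom with the widest spread.

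Spa17 encodes a small protein with a docking domain like that of protein kinase A regulatory subunits, found in sperm tails and other motile cilia. It stood at 7.69, 6.73 and 6.64 CPM in Traf6 KO 1 to 3, against 13.1, 12.3, 13.8 and 12.7 CPM in controls 1 to 4, with a log2 fold change of -0.89 ± 0.12 (SE). Fam183b, a small protein gene linked to motile cilia, stood at 47.7, 42.3 and 40.3 CPM in Traf6 KO 1 to 3, against 69.3, 67.0, 64.7 and 65.7 CPM in controls 1 to 4, a log2 fold change of -0.62 ± 0.093 (SE). The groups did not overlap for either gene, which is what put them in the set. The spread within a genotype was small: 7.02 ± 0.581 and 13.0 ± 0.644 CPM for Spa17, and 43.4 ± 3.81 and 66.7 ± 1.95 CPM for Fam183b, in Traf6 KO and control in turn (SD, n = 3 and 4). Spa17 (chromosome 9, 37603290 to 37613722 on GRCm38, minus strand) shares 36.9% of its exonic bases with Siae on the other strand, and reads there cannot be assigned without a stated strand setting. Siae itself stood at 22.4, 22.4 and 18.4 CPM in Traf6 KO and 24.0, 21.8, 21.2 and 20.3 CPM in control (log2 fold change -0.05 ± 0.11, SE). Scaled to the beta-cell markers in place of TMM, the values of Spa17 and Fam183b were -0.61 and -0.33.

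The question the design puts to the other 43 genes is whether cilium transcripts differ when Traf6 is targeted in beta cells under a high-fat diet. None of the 43 passed the test between genotypes (edgeR quasi-likelihood test, Benjamini-Hochberg adjusted p from 0.189 to 0.983 over 16203 genes tested), against 0% of all genes tested. The unadjusted p was under 0.05 for 11 of the 43 (25.6%), all 11 lower in Traf6 KO, against 16% of all genes tested, or 7.17% counting lower genes alone. DESeq2 called 4 of the 43 (Ift81, B9d1, B9d2 and Rsph1). It called 744 of the 14251 genes to which it gave an adjusted p (5.22%). Of the 43, Foxj1 and Dynlrb2 were given none. The log2 fold change was below 0 for 37 of 43 with a median of -0.26, against 7994 of 16203 genes and a median of 0.005 over all genes tested. In 12 of the 43 (27.9%) all 3 Traf6 KO libraries lay under all 4 controls, against 8.68% of all genes tested, and in 0 of the 43 every Traf6 KO library lay above, against 5.58%. Because the set was proposed with this contrast in view, these counts are a description, with no test of the set. They moved with single libraries: without Traf6 KO 3, 23 of the 43 (53.5%) lay below every control, against 17.7% of all genes tested in that setting, and 2 (Bbs2 and Rsph1) passed the edgeR test, against 4.24%. Without Traf6 KO 1, 19 (44.2%) lay below, against 14.5%, and 3 (6.98%) above, against 12.8%. The count with an unadjusted p under 0.05 was 7 (16.3%) without control 1, against 13.9% of all genes tested, and 7 without control 2, against 10.9%.

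**Figure D2:**
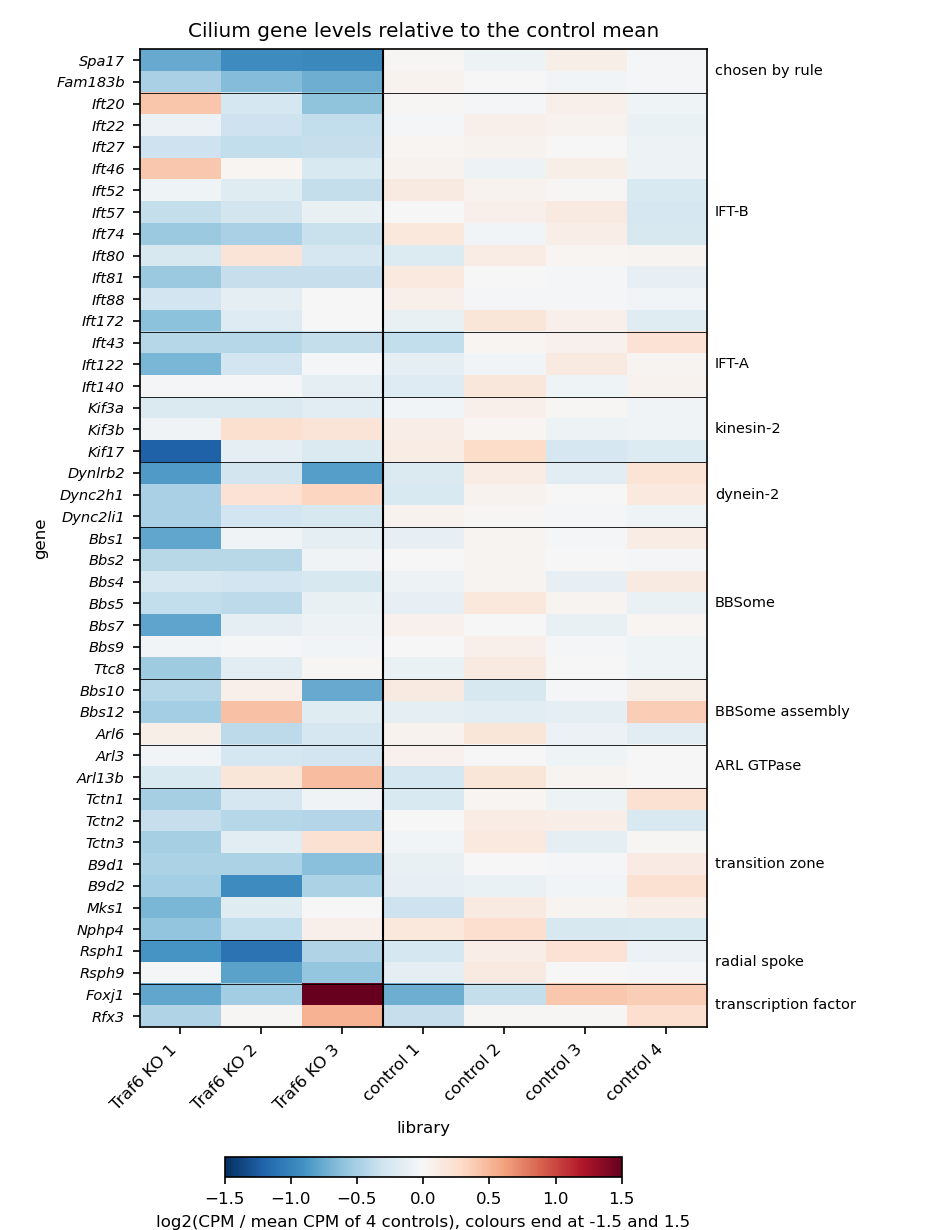
Colour gives log2 of CPM over the mean of the 4 controls, for 45 genes (rows, by role) in 3 Traf6 KO and 4 control libraries (columns). Most rows are blue (lower) in the Traf6 KO columns, with Foxj1 in Traf6 KO 3 (7.58 CPM) as the strongest red cell.

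Library by library, the median of the 43 genes lay 0.40, 0.23 and 0.16 log2 units under the control mean in Traf6 KO 1 to 3 (-0.40, -0.23 and -0.16), and between -0.04 and 0.05 in the controls. Over all genes tested the same medians were between -0.04 and 0.01 in all 7 libraries. The lowest of the 7 levels was found in Traf6 KO 1 for 21 of the 45 genes, in Traf6 KO 2 for 9 and in Traf6 KO 3 for 11. Those 11 include Spa17 and Fam183b, which were chosen for being lower in Traf6 KO. The same count over all genes tested is not given here, so these counts have no background to be read against. The order of the Traf6 KO libraries was also the order of their acinar share. The medians of the 12 beta-cell markers other than insulin ran alike, at -0.49, -0.31 and -0.06 in Traf6 KO 1 to 3. Control 1, at 17.8% acinar counts, had medians of -0.04 for the 43 genes and -0.01 for these markers. Traf6 KO 3 had a smaller acinar share (1.48%) than control 4 (2.95%), whose medians were -0.03 and -0.06. The link of these medians to acinar share was not tested. Within the 2 libraries tagged S, Traf6 KO 3 was set against the library labelled control 4. The median log2 ratio of the 43 genes was -0.12, with 31 below 0. Over all genes tested it was -0.02, with 8423 of 16203 below 0. For the 12 beta-cell markers it was -0.06, with 8 below 0. Among the libraries tagged Q and R alone, 2 Traf6 KO and 3 control, the median log2 fold change of the 43 was -0.35, and a fit with the acinar level as a term gave -0.17. In that fit Bbs2 was at -0.17, Mks1 at -0.01, Dync2h1 at 0.27, Arl13b at 0.44 and Rfx3 at 0.39, each moved by over 1.5 times from its value below.

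The 14 beta-cell markers summed to 92430 to 118800 CPM in Traf6 KO and 158700 to 192900 CPM in control, most of it insulin, and 13 of the 14 had a log2 fold change below 0. Without the insulin genes, 11 of 12 were below 0 with a median of -0.35. Of the 12, 4 (33.3%) lay below every control in each Traf6 KO library, against 8.68% of all genes tested. In bulk RNA, fewer beta cells and less RNA per beta cell cannot be told apart. When libraries were scaled to these 12 markers in place of TMM (chosen after seeing the data), the median of the 43 cilium genes was 0.01 against 0.28 over all genes tested, 2 of the 43 lay below every control, against 1.22% of all genes tested, and 4 above, against 19%. That scaling shifts all genes by nearly the same amount, so it left the distance between the 2 sets about as it was: the medians of the cilium genes and of the 12 markers were -0.26 and -0.35 by TMM, and 0.01 and -0.09 on the marker scale. The 14 ductal markers, from cells that also carry cilia, summed to 1265 to 3357 CPM in Traf6 KO and 843 to 1400 CPM in control, with 10 of 12 tested above 0 and Cftr, a duct channel gene, at 0.13 to 0.32 CPM in Traf6 KO and at most 0.353 CPM in control. The median log2 fold change was -0.02 for 9 alpha markers, -0.29 for 6 delta and gamma markers and -0.20 for 10 endothelial markers. It was -0.55 for 10 macrophage and myeloid markers and 1.25 for 11 stellate and fibroblast markers. The part of ductal cells and of these other cells in the cilium values was not tested.

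Exonic length moved with the fold changes of all genes. Among all genes tested, the median log2 fold change was -0.15, -0.06, 0.03 and 0.12 from the shortest to the longest quartile of exonic length. The share that lay below every control in each Traf6 KO library was 14%, 10.6%, 6.74% and 3.39% in the same order. Of the 43 cilium genes, 5 of 9, 4 of 15, 2 of 10 and 1 of 9 did so in those quartiles, and their median fold changes were -0.44, -0.24, -0.20 and -0.24. The 12 genes had a median exonic length of 2760 bases and the other 31 one of 4582 bases, beside 4054 over all genes tested. The part of length in the cilium values was not tested.

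IFT-B builds the outbound trains. Of its 11 genes here, 10 had a log2 fold change below 0 (median -0.24), and Ift81, Ift74 and Ift27 lay below every control in each Traf6 KO library. Ift81 and Ift74, whose products pair up to carry tubulin, were the lowest of this group together with Ift27, a Rab-like GTPase of the trains. Ift81 stood at 40.6, 46.8 and 46.8 CPM in Traf6 KO 1 to 3, against 65.8, 59.3, 58.7 and 54.7 CPM in controls 1 to 4 (log2 fold change -0.41 ± 0.10, SE, edgeR adjusted p = 0.199). Ift74 stood at 19.7, 20.8 and 23.03 CPM in Traf6 KO, against 32.5, 28.3, 31.1 and 24.6 CPM in control (-0.46 ± 0.12, SE, edgeR adjusted p = 0.202). Ift27 stood at 8.59, 8.24 and 8.39 CPM in Traf6 KO, against 10.8, 11.0, 10.6 and 10.1 CPM in control (-0.34 ± 0.12, SE, edgeR adjusted p = 0.242). For Ift74, the gap between the highest Traf6 KO library and the library labelled control 4 was narrow, and for Ift27 both groups were tight. Ift88 encodes the subunit affected in the classic Tg737 polycystic kidney mouse. It overlapped between groups, at 25.0, 27.6 and 30.2 CPM in Traf6 KO and 31.9, 30.1, 30.1 and 29.4 CPM in control (-0.14 ± 0.097, SE, edgeR adjusted p = 0.510). Ift20 and Ift46 were highest of all 7 libraries in Traf6 KO 1 (125 and 39.3 CPM) and lowest in Traf6 KO 3 (61.5 and 25.3 CPM).

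IFT-A and dynein-2 bring the trains back. The 3 IFT-A genes had log2 fold changes from -0.40 to -0.06, and none lay outside the control range in every Traf6 KO library. Ift140, one of the core IFT-A subunits, stood at 20.5, 20.5 and 19.0 CPM in Traf6 KO, against 18.3, 23.4, 19.9 and 21.7 CPM in control (-0.06 ± 0.11, SE, edgeR adjusted p = 0.838). The dynein-2 genes were spread. The light intermediate chain gene Dync2li1 stood at 24.6, 28.2 and 29.3 CPM in Traf6 KO, against 35.7, 35.0, 34.2 and 33.1 CPM in control, with no overlap (-0.33 ± 0.096, SE, edgeR adjusted p = 0.205). The motor heavy chain gene Dync2h1 stood at 24.2, 39.2 and 42.1 CPM in Traf6 KO, against 28.8, 35.1, 33.7 and 37.4 CPM in control, so both the lowest and the highest library were Traf6 KO (0.06 ± 0.19, SE, edgeR adjusted p = 0.899). Dynlrb2, a roadblock light chain abundant in ciliated tissues, had few counts, 6, 15 and 17 counts in Traf6 KO and 24, 38, 30 and 32 in control. Its levels of 0.54, 0.81 and 0.55 CPM in Traf6 KO lay below the 0.84, 1.06, 0.88 and 1.13 CPM of control (-0.62 ± 0.33, SE, edgeR adjusted p = 0.390).

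The kinesin-2 motor genes did not move as one. Kif3a, the first motor subunit, stood at 22.3, 22.3 and 23.2 CPM in Traf6 KO, below 25.2, 27.2, 26.2 and 24.9 CPM in control (-0.19 ± 0.086, SE, edgeR adjusted p = 0.321). Its partner Kif3b stood at 35.1, 42.98 and 41.7 CPM in Traf6 KO, against 39.3, 37.2, 34.5 and 35.1 CPM in control (0.13 ± 0.10, SE, edgeR adjusted p = 0.566), with overlapping groups. Kif17 was lowest in Traf6 KO 1, at 1.90 CPM, against 3.69 to 5.32 CPM in control.

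All 7 BBSome subunit genes had log2 fold changes below 0, from -0.29 to -0.04. Bbs2 and Bbs4 lay below every control in each Traf6 KO library. Bbs2 stood at 29.0, 28.9 and 37.1 CPM in Traf6 KO, against 38.4, 39.7, 38.4 and 37.9 CPM in control (-0.28 ± 0.11, SE, edgeR adjusted p = 0.286), so Traf6 KO 3 was close to the controls. Bbs4 stood at 14.2, 13.8 and 14.3 CPM in Traf6 KO, against 16.04, 17.3, 15.5 and 18.6 CPM in control (-0.26 ± 0.11, SE, edgeR adjusted p = 0.298). Bbs1 and Bbs7 were lowest in Traf6 KO 1 (7.51 and 10.2 CPM) and lay at 11.6 to 16.8 CPM in the other Traf6 KO libraries. Bbs9 stood at 14.3 to 14.6 CPM in Traf6 KO and 14.2 to 15.6 CPM in control. The assembly and recruitment genes Bbs10, Bbs12 and Arl6 had overlapping groups.

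Among transition-zone genes all 7 had log2 fold changes below 0 (median -0.26), and B9d1, B9d2 and Tctn2 lay below every control in each Traf6 KO library. B9d1 and B9d2 encode B9-domain proteins that form a complex with MKS1 in the gate. B9d1 stood at 8.87, 8.83 and 7.94 CPM in Traf6 KO, against 11.4, 12.4, 12 and 13.4 CPM in control (-0.52 ± 0.12, SE, edgeR adjusted p = 0.189). B9d2 stood at 9.23, 6.84 and 9.46 CPM in Traf6 KO, against 12.2, 12.4, 12.9 and 15.4 CPM in control (-0.63 ± 0.16, SE, edgeR adjusted p = 0.201). Their partner Mks1 overlapped between groups, at 9.95, 14.1 and 15.8 CPM in Traf6 KO and 12.9, 17.5, 16.4 and 17.1 CPM in control (-0.26 ± 0.18, SE, edgeR adjusted p = 0.523). Tctn2, a tectonic of the gate, stood at 11.0, 10.45 and 10.4 CPM in Traf6 KO, against 14.0, 15.2, 15.0 and 12.04 CPM in control (-0.41 ± 0.12, SE, edgeR adjusted p = 0.220). Of the ARL genes, Arl13b, whose product marks the ciliary membrane, stood at 9.77, 13.0 and 15.8 CPM in Traf6 KO, against 9.49, 13.0, 11.8 and 11.4 CPM in control (0.17 ± 0.19, SE, edgeR adjusted p = 0.674).

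**Figure D3:**
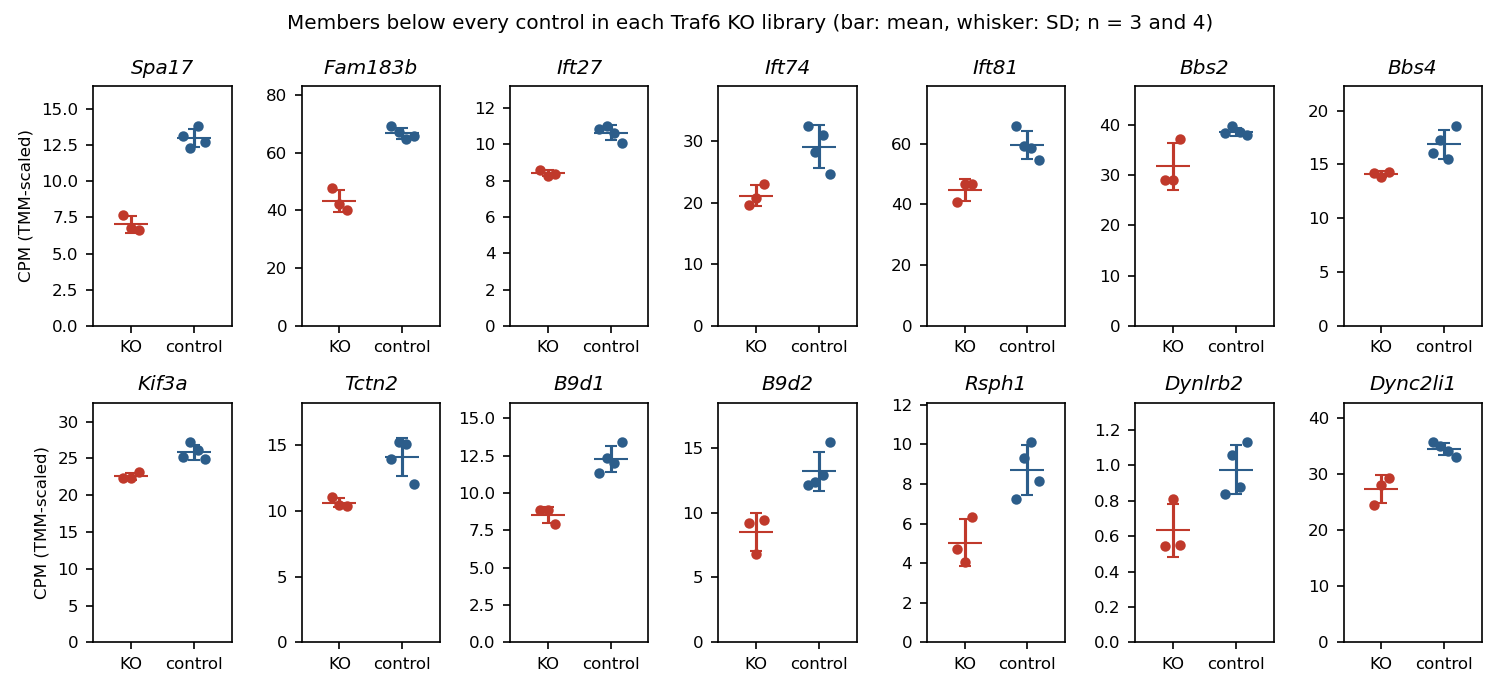
CPM in each library for Spa17, Fam183b and the 12 other genes whose Traf6 KO libraries (red) all lay below the controls (blue), with mean and SD (n = 3 and 4). The gap is wide for Spa17 (6.64 to 7.69 CPM in Traf6 KO, 12.3 to 13.8 in control) and narrow for Bbs2 (28.9 to 37.1 and 37.9 to 39.7).

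Radial spokes stiffen and pace motile axonemes, and Rsph1 and Rsph9 encode parts of the spoke head. Rsph1 stood at 4.70, 4.04 and 6.35 CPM in Traf6 KO, against 7.21, 9.31, 10.1 and 8.15 CPM in control (-0.78 ± 0.21, SE, edgeR adjusted p = 0.201), and with the acinar level as a term it was at -0.51 (edgeR adjusted p = 0.269). Rsph9 stood at 11.6, 6.79 and 7.90 CPM in Traf6 KO, against 10.8, 12.9, 11.9 and 11.7 CPM in control, and Traf6 KO 1 lay within the control range. Rfx3 stood at 10.9, 15.0 and 21.4 CPM in Traf6 KO, against 11.7, 15.1, 15.1 and 17.7 CPM in control (0.09 ± 0.23, SE, edgeR adjusted p = 0.878).

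Foxj1 separated 1 library from the other 6. It stood at 0.54, 0.65 and 7.58 CPM in Traf6 KO 1 to 3 (6, 12 and 234 counts), against 0.56, 0.72, 1.23 and 1.2 CPM in controls 1 to 4 (16, 26, 42 and 34 counts). Its fold change was 1.69 ± 0.87 on the log2 scale (SE, edgeR adjusted p = 0.377). Leaving out Traf6 KO 3 gave -0.63. Among the 21 tested motile axoneme genes, Traf6 KO 3 was the highest library for 8. Controls 1 to 4 were the highest for 3, 4, 2 and 4, and Traf6 KO 1 and 2 for 0. The same count over all genes tested is not given here, so these counts have no background either. Of the 8, Tppp3 is a tubulin-binding protein gene of multiciliated cells and other cell types. It stood at 3.80, 2.96 and 40.7 CPM in Traf6 KO and 4.31, 11.98, 8.19 and 8.68 CPM in control. Rsph4a, another spoke-head gene, stood at 1.36, 3.29 and 7.90 CPM in Traf6 KO and 2.35, 2.20, 2.49 and 2.37 CPM in control. Both were named after their values were seen. Mcidas and Gmnc, which start the multiciliated programme, had 0 CPM in all 7 libraries, Sntn of the ciliary tip had 0 CPM as well, and Dynlrb2 (0.55 CPM) and Fam183b (40.3 CPM) were not raised in Traf6 KO 3. That library was also the only one with Xist and without Y-linked counts, and the part of sex in its values was not tested.

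**Figure D4:**
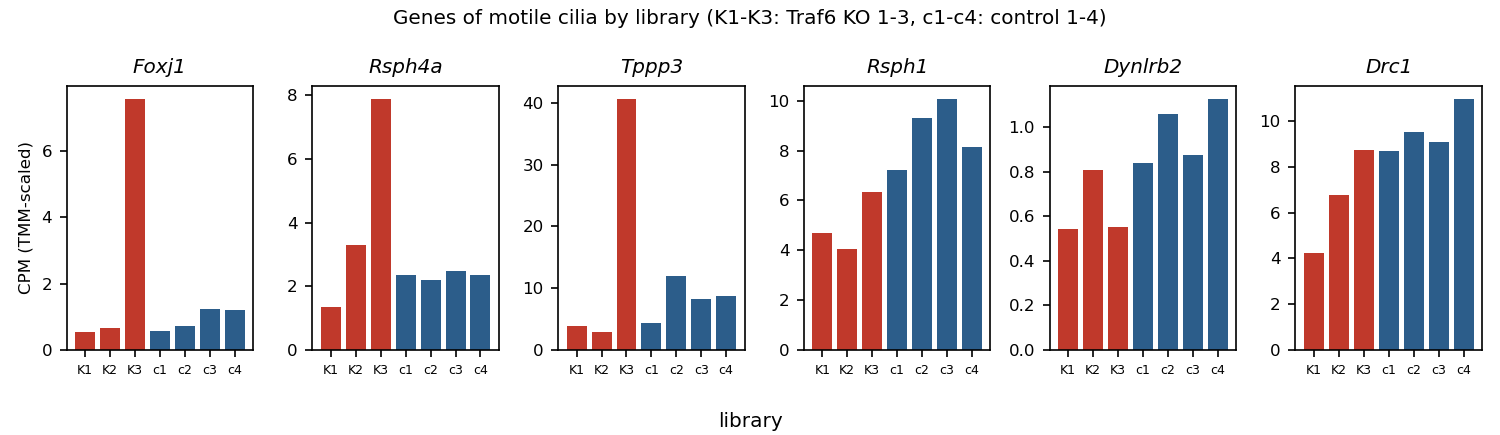
Bars give CPM by library for 6 genes of motile cilia, 3 Traf6 KO (red, K1 to K3) left of 4 control (blue, c1 to c4). Foxj1 (7.58 CPM), Rsph4a (7.90 CPM) and Tppp3 (40.7 CPM) peak in Traf6 KO 3, whereas Rsph1, Dynlrb2 and Drc1 do not.

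Beyond the 45 genes, 118 others of the cilium were looked up by function, and 97 were expressed highly enough to test. None passed in edgeR, and 3 passed in DESeq2 (Tmem107, Cby1 and Smo), where 5.22% of all genes given an adjusted p passed. An unadjusted edgeR p under 0.05 was found for 19 (19.6%, 16 lower and 3 higher), against 16% of all genes tested. Counting lower genes alone, it was found for 16 of the 97, against 7.17% of all genes tested. In 18 of the 97 (18.6%) the Traf6 KO levels were all under the lowest control level, against 8.68% of all genes tested. In 2 (2.06%) they were all over the highest one, against 5.58%. The log2 fold change was below 0 for 63, with a median of -0.08. Other IFT and trafficking genes were below 0 in 21 of 27 (median -0.12), other transition-zone genes in 15 of 18 (-0.14), basal body and centriole appendage genes in 10 of 16 (-0.03) and motile axoneme genes in 14 of 21 (-0.31). Hedgehog and ciliary signalling genes were below 0 in 2 of 11 (median 0.20) and genes of ciliogenesis transcription in 1 of 4 (0.18). With the smallest p, Tmem107, a membrane protein of the transition zone, stood at 15.0, 12.4 and 15.9 CPM in Traf6 KO, against 22.9, 20.9, 25.6 and 21.6 CPM in control (-0.65 ± 0.13, SE, edgeR adjusted p = 0.176). Cby1, a basal body protein gene, was at -0.49 ± 0.11, Pde6d, a carrier of lipid-modified cargo that works with ARL3, at -0.38 ± 0.10, the IFT-B gene Cluap1 at -0.55 ± 0.16 and the dynein-2 intermediate chain gene Dync2i2 at -0.30 ± 0.089 (SE). Their groups did not overlap. Smo, the Hedgehog transducer that enters the cilium when the pathway is active, stood at 5.70, 3.72 and 2.85 CPM in Traf6 KO, against 2.35, 1.67, 1.67 and 1.69 CPM in control (1.14 ± 0.30, SE, edgeR adjusted p = 0.201). Its highest level was in Traf6 KO 1, the library with the highest acinar percentage. Control 1, the control with the highest acinar percentage, was the highest control. The part of acinar or other cells in the Smo values was not tested. Traf6 KO 3, at 1.48% acinar counts, stood at 2.85 CPM, above the 2.35 CPM of control 1 at 17.8%. The groups thus did not overlap for Smo either. With the acinar level as a term in the edgeR fit, Smo was at 0.72 (adjusted p = 0.310). Ptch1, which holds SMO in check, stood at 16.01, 25.6 and 26.8 CPM in Traf6 KO and 20.4, 19.5, 19.4 and 17.3 CPM in control.

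**Figure D5:**
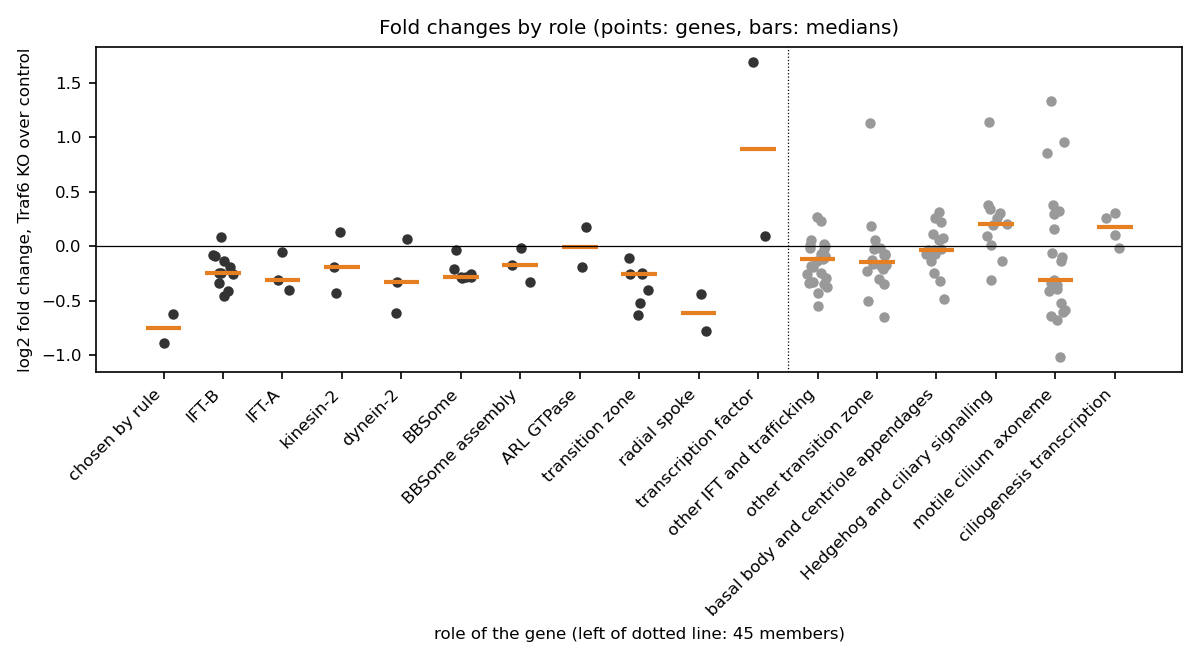
Each point is the log2 fold change (Traf6 KO over control) of 1 tested gene, grouped by role, with the median as an orange bar and the 45 genes left of the dotted line. IFT-B (median -0.24), BBSome (-0.28) and transition-zone genes (-0.26) lie mostly below 0, and Foxj1 (1.69) stands apart.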

How the data were processed

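RNA of 7 islet libraries was sequenced, and the deposited table holds unnormalized whole-number counts, 1 column per library. The submitters' processing notes list GRCm38, FastQC, RSEM 1.3.1 and STAR 2.6.1b without saying what each did, and whether the counts are rounded RSEM estimates is unknown. Annotation, strand setting and filters were not given in the sources used here. Of 55487 gene identifiers 55141 matched GENCODE M21 (GRCm38), which gave positions and exonic lengths (union of exons). Groups came from the library names. Each library was taken as 1 mouse, and if any shared a mouse, p-values cover the spread between samples alone. All 21 pairs of libraries differed beyond sampling noise (lowest chi-square per gene 21.8).

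The test was that of edgeR 4.0.16 under R 4.3.3 (quasi-likelihood F test, TMM, genotype as the only term, filterByExpr with a minimum count of 10 and total of 15), adjusted by Benjamini-Hochberg over all genes tested, threshold 0.05. All 45 genes passed this filter. Alternatives used DESeq2 1.42.0 and limma 3.58.1. The fit was tested on simulated counts, and no result of that is used here. CPM divides each count by library total times TMM factor. SE is the absolute fold change over the root of F. The precision of low genes is limited by their counts.

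The members and lists were chosen with earlier results of these data known. Fold changes are named for Spa17 and Fam183b, members whose groups do not overlap, 10 members whatever their values, the 3 members with the smallest p in each direction and the 6 other cilium genes with the smallest p. Other levels were named after values were seen.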

Additional observations from a re-analysis of the deposited data

Results flagged for a closer look

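Among the 4 controls, 1 of the 45 cilium genes had a library far from the rest. Bbs12, a chaperonin-like assembly factor of the BBSome, stood at 3.18 CPM in the library labelled control 4, against 2.24, 2.17 and 2.22 CPM in controls 1 to 3. The gap was 0.933 of the range of the controls, above Dixon's critical value at this sample number. Chance alone flags about 1 in 20 such groups. The counts behind it were 90 in that library and 64, 78 and 76 in controls 1 to 3.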

How the results depend on the processing

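Results were recomputed under 19 alternatives, 2 of them (beta-marker scaling and leaving out the 3 acinar-rich libraries) chosen after the data were seen. DESeq2 called 4 of the 43 cilium genes, 3 other cilium genes and 744 of all genes. Leaving out 1 library at a time gave 0 to 2 of the 43 past the threshold, 0 to 2 other cilium genes and 0 to 701 of all genes, with every highest value reached without Traf6 KO 3. The count with an unadjusted p under 0.05 ran from 7 to 15, that of genes below every control from 12 to 23, that of genes above from 0 to 3, and the median from -0.338 to -0.178. Over all genes tested, the share with an unadjusted edgeR p under 0.05 ran from 9.89% to 23.5% in these settings. The share below every control ran from 10.1% to 17.7%, and the share above from 6.61% to 16.5%. Part of the larger non-overlap counts follows from fewer libraries. Only Q- and R-tagged libraries gave 26 genes below (60.5%, against 21.7% of all genes) and a median of -0.345. With the acinar covariate the median was -0.165, and 3 of all genes passed. Without the 3 acinar-rich libraries, which leaves 1 Traf6 KO library assumed to vary like the controls, 27 lay below (against 32.9% of all genes), 6 above (against 32%), the median was -0.20, 1 other cilium gene and 67 of all genes passed. Scaled to beta-cell markers, 3 (6.98%) had an unadjusted edgeR p under 0.05, against 25.9% of all genes. In that setting 2 lay below (4.65%, against 1.22% of all genes), 4 above (9.3%, against 19%), and the median was 0.013. The direction of 20 of 28 named genes held in all alternatives run. Dync2h1 was at -0.032, Arl13b at -0.001, Rfx3 at -0.102 and Foxj1 at -0.484 among Q- and R-tagged libraries. Without 1 library at a time, Dync2h1 reached -0.086, Arl13b -0.003, Rfx3 -0.195 and Foxj1 -0.629 (each without Traf6 KO 3), with highest values of 0.277, 0.337, 0.298 and 2.148, and Ift140 ran from -0.092 to 0.006 (without control 2). Without Traf6 KO 2, Dync2h1 was at -0.017. Ift88 was at 0.006 without the acinar-rich libraries. Under beta-marker scaling Bbs4 was at 0.02, Kif3a at 0.082, Ift88 at 0.128 and Ift140 at 0.226. The cause was not tested.

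With the replicate block (the replicate number as a term) 0 of the 43 and 6 of all genes passed, and the median was -0.278. Same-numbered libraries did not deviate together in every pair (correlation across genes 0.56, -0.133 and 0.437), so the numbers were not taken to pair the mice.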
